A study of Mus musculus with 20 samples.

Results

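The genes described here encode erythroid transcription factors and proteins of erythroid signalling, namely Gata1, Tal1, Klf1, Nfe2, Gfi1b, Zfpm1, Epor, Erfe, Trim10, and Ermap. They were chosen by name, with earlier results of these data known. The 10 names matched 10 of the 55401 genes counted, 1 gene each. The counts came from RNA-seq of 5 organs of WT mice and of mice without a working Nsun6 gene (Nsun6-KO): spleen, liver, kidney, heart, and small intestine. Each organ and genotype had 2 libraries, 20 in all. Nsun6 is a methyltransferase that places 5-methylcytosine on RNA. The KO strain was made by CRISPR/Cas9 in fertilized eggs of C57BL/6J mice, in which exons 3 and 4 of Nsun6 were removed, and homozygous KO mice were compared with WT mice. All tissues came from 8-week-old female mice and were frozen and ground whole, so blood and every other cell type of an organ contributed RNA. The deletion is in every cell of the animal and not only in the erythroid lineage. The study calls the replicates biological, but the number of founders, the use of littermates, and whether organs shared animals were not stated, and p-values measure only the spread between these libraries.

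Red cells are made under a small network of transcription factors. GATA1 binds GATA sites of erythroid genes together with its cofactor FOG1, the product of Zfpm1, and forms a complex with TAL1, which binds E-box sites. KLF1 binds CACCC boxes of globin and other red cell genes, NFE2 acts with small MAF proteins, and GFI1B is a repressor of this lineage. Erythropoietin from the kidney keeps red cell precursors alive through its receptor, encoded by Epor, and the precursors answer with the hormone erythroferrone, the product of Erfe, which lowers hepcidin in the liver. Trim10 and Ermap are expressed in late red cell precursors. In mice, the red pulp of the spleen makes red cells beside the bone marrow.

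The promoters of these genes are shown because the factors named above bind short DNA words. RefSeq gave a promoter for 9 of the 10 genes, all except Nfe2, in build GRCm38.p6. The 250 bases before the RefSeq start are printed 5′ to 3′ on the strand of the gene for Gata1, Epor, Trim10, Gfi1b, and Zfpm1. These are the factor at the head of the network, the receptor, the gene with the largest change in the spleen among the 10, and the 2 genes with the smallest. Capitals mark matches on either strand to GATAA, the core of a GATA site, to CACCC, the box bound by KLF1, to CAGNTG, the E-box, or to TGAGTCA, the core of an NFE2 site. No matches overlapped in these windows. The windows are chrX:7967911-7968160 on the minus strand for Gata1, chr9:21963577-21963826 on the minus strand for Epor, chr17:36869324-36869573 on the plus strand for Trim10, chr2:28621983-28622232 on the minus strand for Gfi1b, and chr8:122281891-122282140 on the plus strand for Zfpm1.
Gata1: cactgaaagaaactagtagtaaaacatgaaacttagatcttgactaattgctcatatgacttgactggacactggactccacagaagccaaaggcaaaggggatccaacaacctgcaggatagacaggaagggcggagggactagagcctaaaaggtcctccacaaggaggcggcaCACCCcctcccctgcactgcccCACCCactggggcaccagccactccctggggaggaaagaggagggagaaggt
Epor: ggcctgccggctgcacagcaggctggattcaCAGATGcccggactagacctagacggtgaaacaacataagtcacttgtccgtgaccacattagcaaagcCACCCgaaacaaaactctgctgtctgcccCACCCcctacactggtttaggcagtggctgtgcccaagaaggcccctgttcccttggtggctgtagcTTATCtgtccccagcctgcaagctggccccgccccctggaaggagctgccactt
Trim10: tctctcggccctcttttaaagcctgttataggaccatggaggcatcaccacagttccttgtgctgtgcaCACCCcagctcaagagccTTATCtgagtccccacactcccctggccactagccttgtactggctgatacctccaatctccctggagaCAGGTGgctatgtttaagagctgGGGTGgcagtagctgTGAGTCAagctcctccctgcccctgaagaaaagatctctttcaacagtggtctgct
Gfi1b: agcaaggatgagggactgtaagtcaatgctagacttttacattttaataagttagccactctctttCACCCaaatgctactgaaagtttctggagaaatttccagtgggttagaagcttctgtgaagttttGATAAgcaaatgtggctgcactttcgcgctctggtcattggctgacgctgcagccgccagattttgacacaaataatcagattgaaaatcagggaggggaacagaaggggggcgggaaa
Zfpm1: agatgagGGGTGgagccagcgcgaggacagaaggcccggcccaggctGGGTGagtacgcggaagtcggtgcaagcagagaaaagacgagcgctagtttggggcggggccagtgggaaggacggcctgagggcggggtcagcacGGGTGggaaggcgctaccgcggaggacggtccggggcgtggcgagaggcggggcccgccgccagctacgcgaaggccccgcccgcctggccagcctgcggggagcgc

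The Trim10 window was the only one of these 9 genes to hold all 4 words, with TGAGTCA 56 bases, CAGNTG 94 bases, and GATAA 163 bases before the start, and CACCC at 71 and 181 bases. The table held 10 windows for the 9 genes, since Tal1 had 2, of which the one at chr4:115057561-115057810 held none of the words. GATAA was found in 6 of the 10 windows (Klf1, Tal1, Epor, Trim10, Gfi1b, and Ermap) and in 22.6% of all 32851 promoter windows of this length. CACCC was found in 9 of 10 windows, 1 for each gene, and in 52.0% of all windows. CAGNTG was found in the windows of Klf1, Epor, and Trim10, 3 of 10, and in 44.8% of all windows. TGAGTCA was found in that of Trim10 alone, 1 of 10, and in 4.46% of all windows. A match is a description of the letters and not a site of binding.

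The spleen libraries held 34687048 and 25021003 counts in WT replicates 1 and 2, and 30041724 and 28636897 in KO replicates 1 and 2. The organs matched their labels by marker sums in CPM, the counts per 1000000 counts of a library after TMM normalization within the organ. The 8 intestinal epithelium markers summed to 14782 CPM or more in every small intestine library and to 235 or less in other organs. The 8 kidney markers reached at least 29411 CPM in the kidney and the 8 heart muscle markers at least 55832 CPM in the heart. The 12 hepatocyte markers reached at least 134711 CPM in the liver, and in the spleen the 9 B cell markers reached at least 4255 CPM. Transcripts of other organs were high in 2 spleen libraries. In spleen WT replicate 2, the 12 hepatocyte markers summed to 5804 CPM, led by Alb at 4057 CPM, against 20.1 in WT replicate 1, 213 in KO replicate 1, and 306 in KO replicate 2, and none of the 12 was at 0 in any spleen library. In the liver libraries of WT mice, Gata1, Gfi1b, and Erfe had 0 counts, Ermap had 0 and 2, and Trim10 8 and 0. Zfpm1 had 355 and 391 counts there, Klf1 174 and 114, Nfe2 163 and 26, Epor 69 and 59, and Tal1 50 and 58. In spleen KO replicate 1, the 8 kidney markers summed to 70.8 CPM, led by Kap at 50.4 CPM, against 3.82 CPM or less in the other spleen libraries. Gata1 and Gfi1b had 0 counts in every kidney library. The calls among the 10 genes are therefore also given without each spleen library.

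Nsun6 (ENSMUSG00000026707) was measured in every organ. The WT spleen libraries held 8.77 and 6.59 CPM of Nsun6 and the KO spleen libraries 5.99 and 10.3 CPM, and the genotypes also overlapped in the small intestine, at 9.67 and 6.09 CPM (WT) against 9.13 and 5.09 CPM (KO). In the liver each KO library was lower than each WT library, at 4.68 and 3.18 CPM (WT) against 2.67 and 2.92 CPM (KO). The same held in the kidney, at 6.32 and 6.55 CPM (WT) against 4.38 and 3.71 CPM (KO), and in the heart, at 6.62 and 6.27 CPM (WT) against 5.57 and 5.11 CPM (KO). None of these differences passed edgeR's test, with an adjusted p of 1 in each organ. The removed exons are a part of the 5006 bp of merged exons over which reads were counted, so this level does not check the genotype. The study checked the genotype by PCR and reports loss of the protein by Western blot of liver, spleen, and heart.

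The study lists erythrocyte homeostasis among the terms enriched in genes upregulated in the KO spleen. The 10 genes were chosen with earlier results of these data known, so the shares below describe them and are no independent support. In the KO spleen, all 10 genes had a log2 fold change above 0, against 51.3% of the 18834 genes tested. Their median log2 fold change was 1.25, and that of all genes tested was 0.0072. Genes were called when the Benjamini-Hochberg adjusted p of edgeR's quasi-likelihood test was under 0.1 and the fold change over 2. By this rule 1 of the 10, Trim10, was upregulated, against 0.218% of all genes tested, and none was downregulated, against 0.00531%. At an unadjusted p under 0.05, 7 of 10 were higher in KO, against 4.32% of all genes, and 0 were lower, against 0.828%. DESeq2 called 6 of 10 upregulated and 0 downregulated, against 0.67% and 0.0267% of its 29979 genes. Its genes are all those with any count in the spleen, while edgeR's passed a filter on low counts, so their shares have unlike bases. The 6 were Klf1, Tal1, Nfe2, Epor, Trim10, and Ermap. Both KO libraries lay above both WT libraries for 8 of 10 genes, against 17% of all genes, and Zfpm1 and Gfi1b were the exceptions. With 2 libraries per group, an exact permutation test of a single gene cannot go below a two-sided p of 0.333. In bulk RNA, more cells of a type and more RNA per cell cannot be told apart.

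**Figure D1:**
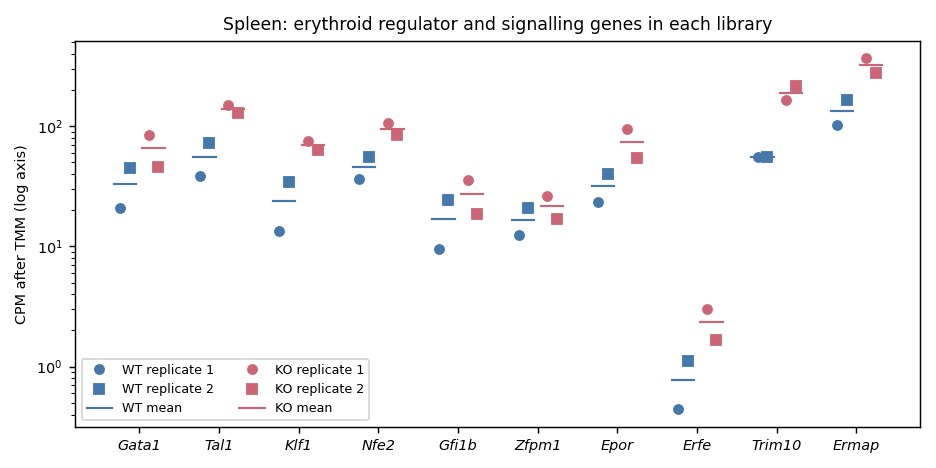
Level of the 10 genes in the 4 spleen libraries, in CPM after TMM normalization on a log axis. Circles are replicate 1, squares are replicate 2, and lines are the mean of 2 libraries. WT replicate 1 was the lowest library for all 10 genes, and the WT libraries of Trim10 coincide at 55.0 and 55.8 CPM while its KO libraries sit at 166 and 215 CPM.

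Gata1 (ENSMUSG00000031162, chrX:7959260-7978071, 10 merged exons of 2438 bp) encodes the factor that most erythroid genes depend on. It was measured at 20.7 and 44.9 CPM in WT replicates 1 and 2 and at 85.2 and 45.7 CPM in KO replicates 1 and 2. The genotypes did not overlap, but KO replicate 2 was only 1.02 times WT replicate 2. Its log2 fold change of 0.998, with a standard error (SE) of 0.526, did not pass edgeR's test (adjusted p = 1) or that of DESeq2 (adjusted p = 1). Leaving out 1 library moved it between 0.45 and 1.65.

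Tal1 (ENSMUSG00000028717, chr4:115056426-115071755, 7 merged exons of 4379 bp) encodes the E-box partner of GATA1. It stood at 38.8 and 72.6 CPM in WT and at 150 and 128 CPM in KO. The lowest KO library was 1.77 times the highest WT library. The log2 fold change of Tal1 was 1.32 ± 0.30 (SE), with an adjusted p of 0.311 from edgeR and 0.000971 from DESeq2.

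Klf1 (ENSMUSG00000054191, chr8:84901928-84905295, 3 merged exons of 1534 bp) encodes the CACCC-binding activator of globin genes. Its WT libraries were at 13.5 and 34.4 CPM, 2.55 times apart, and its KO libraries at 75.1 and 63.6 CPM. Both KO libraries lay above both WT libraries, the lowest by 1.85 times. The log2 fold change of 1.54 ± 0.49 (SE) had an adjusted p of 0.82 from edgeR and 0.00363 from DESeq2.

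Nfe2 (ENSMUSG00000058794, chr15:103248212-103258403, 7 merged exons of 2988 bp), whose product pairs with small MAF proteins, was at 36.3 and 55.1 CPM in WT and 106 and 84.0 CPM in KO. There was no overlap, with the lowest KO library 1.52 times the highest WT library. KO exceeded WT by 1.06 ± 0.24 (SE) on the log2 scale, and the adjusted p was 0.249 from edgeR and 0.0053 from DESeq2.

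Gfi1b and Zfpm1 were the pair whose genotypes overlapped. Gfi1b (ENSMUSG00000026815, chr2:28609450-28621982, 7 merged exons of 1830 bp), which encodes the repressor, was at 9.54 and 24.4 CPM in WT and 35.7 and 18.5 CPM in KO, so that KO replicate 2 fell between the WT libraries. Its log2 fold change was 0.68 ± 0.60 (SE), with an adjusted p of 1 from both edgeR and DESeq2, and moved between 0.094 and 1.5 with 1 library left out. Zfpm1 (ENSMUSG00000049577, chr8:122282141-122337251, 11 merged exons of 3503 bp), which encodes the GATA1 cofactor, was at 12.4 and 20.7 CPM in WT and 26.4 and 16.9 CPM in KO. KO replicate 2 was again between the WT libraries. The log2 fold change of Zfpm1 was 0.39 ± 0.32 (SE), with an adjusted p of 1 from both tools.

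Epor (ENSMUSG00000006235, chr9:21958897-21963506, 8 merged exons of 1989 bp) encodes the erythropoietin receptor. It was at 23.5 and 40.0 CPM in WT and 94.0 and 54.4 CPM in KO. KO replicate 2 was 0.579 times KO replicate 1, and the lowest KO library was 1.36 times the highest WT library. KO exceeded WT by 1.23 ± 0.37 (SE) on the log2 scale, with an adjusted p of 0.659 from edgeR and 0.0166 from DESeq2.

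Erfe (ENSMUSG00000047443, chr1:91366430-91374217, 8 merged exons of 2815 bp), which encodes erythroferrone, had few reads. Its counts were 16 and 28 in WT libraries and 90 and 46 in KO libraries, or 0.443 and 1.10 CPM in WT and 3.04 and 1.68 CPM in KO. The genotypes did not overlap. The log2 fold change of Erfe was 1.62 ± 0.60 (SE), and its adjusted p was 0.811 from edgeR and 0.596 from DESeq2. Of its exon bases, 357, or 12.7%, overlap Ilkap on the opposite strand, and the command stored with the counts names no strand, so reads of both genes cannot be told apart there. Ilkap was at 99.3 and 98.0 CPM in WT and 118 and 94.1 CPM in KO, with a log2 fold change of 0.10 ± 0.17 (SE).

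Trim10 (ENSMUSG00000073400, chr17:36869574-36877833, 7 merged exons of 2245 bp) encodes a tripartite motif protein of late red cell precursors. It stood at 55.0 and 55.8 CPM in WT and rose to 166 and 215 CPM in KO, so that the lowest KO library was 2.97 times the highest WT library. Its log2 fold change of 1.78 ± 0.18 (SE) passed edgeR's test with an adjusted p of 0.0656, the third smallest p of the 18834 genes, and that of DESeq2 with an adjusted p of 4.52e-14. Among the 10 genes, it alone was higher in KO replicate 2 than in KO replicate 1.

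Ermap (ENSMUSG00000028644, chr4:119175457-119190011, 13 merged exons of 5297 bp), which encodes an erythroid membrane protein of the butyrophilin-like type, was at 103 and 165 CPM in WT and 367 and 279 CPM in KO. The lowest KO library was 1.69 times the highest WT library. On the log2 scale KO exceeded WT by 1.27 ± 0.26 (SE), with an adjusted p of 0.212 from edgeR and 0.000324 from DESeq2.

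**Figure D2:**
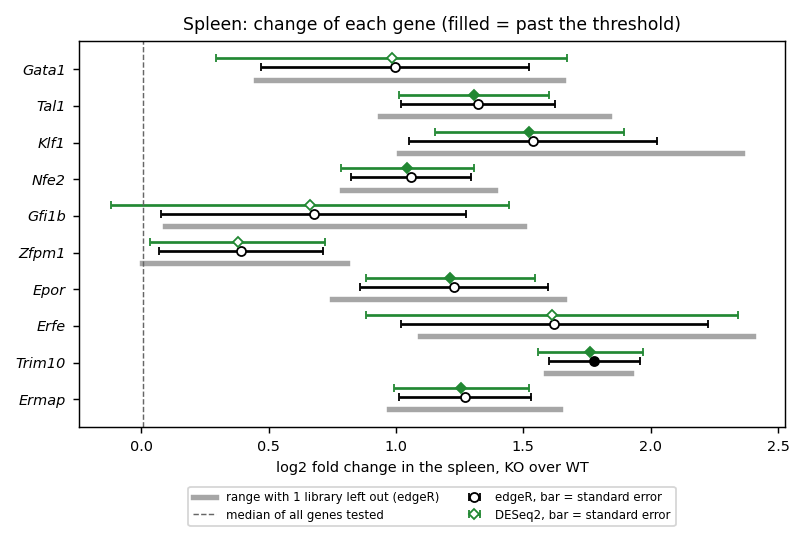
Log2 fold change of KO over WT in the spleen for each of the 10 genes, from edgeR (circles) and DESeq2 (diamonds) with standard errors as bars, filled where past the threshold. Grey bars span the values with 1 library left out, and the dashed line is the median of all genes tested. Trim10 is filled in both tests and has the narrowest grey bar, from 1.59 to 1.92.

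The 10 genes shared an order of libraries that was not their genotype alone. WT replicate 1 was the lowest of the 4 spleen libraries for 10 of 10 genes, against 24.4% of all genes tested, and KO replicate 1 was the highest for 9 of 10, against 25%. The WT libraries were most unlike for Gfi1b and Klf1, at 2.56 and 2.55 times, and nearly equal for Trim10, at 1.01 times. Summed over the 10 genes, the libraries held 313 and 514 CPM in WT and 1109 and 907 CPM in KO.

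Calls followed the libraries included. Without WT replicate 2, the library with liver transcripts, edgeR called 6 of 10 genes upregulated, against 1.32% of the genes tested. They were Klf1 (adjusted p = 0.00597), Tal1 (0.0156), Trim10 (0.0178), Ermap (0.0231), Nfe2 (0.043), and Epor (0.0701). Without WT replicate 1 the call was Trim10 alone, against 0.351% of all genes, and without KO replicate 1 it was again Trim10 alone, against 0.1%. Without KO replicate 2 no gene of the table was called (0 of 19941, 0%), and Trim10 had an adjusted p of 0.117, while 5 of the 10 genes were higher at an unadjusted p under 0.05, against 4.16% of all genes. The log2 fold changes of all 10 genes stayed above 0 in each of these fits, with that of Zfpm1 at 0.0042 without KO replicate 1. The highest values came without WT replicate 2 for every gene except Trim10, reaching 2.36 for Klf1, 1.84 for Tal1, 1.39 for Nfe2, 0.81 for Zfpm1, 1.66 for Epor, 1.65 for Ermap, and 2.40 for Erfe. The lowest values were 1.01 for Klf1, 0.94 for Tal1, 0.79 for Nfe2, 0.75 for Epor, 0.97 for Ermap, and 1.09 for Erfe, each without WT replicate 1 or KO replicate 1. Without a filter on low counts, edgeR called the same 6 genes as DESeq2, against 0.867% of all genes.

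Compared per length of merged exons, in TPM, which scales the counts per exon length to a sum of 1000000 in each library, Ermap and Trim10 led the WT spleen at 67.3 ± 19.1 and 66.1 ± 2.21 TPM (SD, n = 2). Epor followed at 42.4 ± 13.9 TPM, below Trim10 without overlap. Klf1, Nfe2, Gata1, and Tal1 lay at 41.2 ± 23.9, 40.7 ± 10.1, 35.7 ± 17.2, and 33.8 ± 13.1 TPM, and each differed from its neighbours by less than the spread between libraries. Gfi1b at 24.5 ± 14.3 TPM overlapped Zfpm1 at 12.6 ± 3.96 TPM, and Erfe was far lower at 0.727 ± 0.414 TPM. In the KO spleen Trim10 led at 204 ± 33.7 TPM, Ermap followed at 147 ± 30.8 TPM, and Klf1 came next at 109 ± 14.7 TPM.

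Other regulators of the lineage were divided evenly in direction. In a list of 26 partners of GATA1 and TAL1 and other regulators, 1 was called upregulated, against 0.218% of all genes. None was called downregulated, against 0.00531%. The median log2 fold change was 0.012, with 13 above and 13 below 0. At an unadjusted p under 0.05, 6 of the 26 were higher and 0 lower, against 4.32% and 0.828% of all genes. Sox6, E2f2, Lmo2, Foxo3, E2f4, and Dnmt1 were these 6, of which Sox6 had a fold over 2. E2f2 and Lmo2 had an adjusted p of 0.00325 and 0.0444 from DESeq2. The number past the unadjusted threshold changed with the library left out, and it was not all in 1 direction without KO replicate 1. With 1 library left out, the median of the list moved between −0.053 (without KO replicate 1) and 0.077 (without KO replicate 2). Sox6, which encodes a repressor of embryonic globin, rose from 24.4 and 32.1 CPM in WT to 89.3 and 100.2 CPM in KO, which is 1.75 ± 0.19 (SE) higher on the log2 scale with an adjusted p of 0.0656 from edgeR. Leaving out either KO library ended this call. The highest log2 fold change of the list was then 1.79 (without KO replicate 1) and 1.67 (without KO replicate 2). Gata2, the GATA factor of early progenitors, had the lowest value of the list at −0.54 ± 0.33 (SE), with 8.66 and 11.7 CPM in WT and 8.76 and 5.21 CPM in KO, which overlap. Among 24 tested genes of erythropoietin receptor signalling, whose median was 0.015, none passed edgeR's or DESeq2's threshold with a fold over 2. At an unadjusted p under 0.05, 2 of the 24 were higher and 0 lower, against 4.32% and 0.828% of all genes. Bcl2l1, a survival gene downstream of the receptor, was the highest of them at 42.7 and 41.2 CPM in WT and 76.9 and 65.9 CPM in KO, which is 0.77 ± 0.16 (SE) higher on the log2 scale with an adjusted p of 0.22 from edgeR and 0.0151 from DESeq2. Kit, the stem cell factor receptor, was the lowest at −0.30 ± 0.25 (SE), with 34.8 and 36.9 CPM in WT and 36.1 and 22 CPM in KO.

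Genes that carry out red cell functions had log2 fold changes above 0, like the 10 genes, though most were not called by edgeR. The 38 tested effector genes include genes of globins, heme synthesis, membrane skeleton, and iron uptake. All 38 had a log2 fold change above 0, against 51.3% of all genes tested, and the median was 1.31. Of these, edgeR called 8 upregulated, against 0.218% of all genes, and DESeq2 called 27, against 0.67% of its 29979 genes. Hemgn, which encodes a nuclear protein of erythroid cells, was the highest at 75.2 and 113 CPM in WT and 327 and 351 CPM in KO, 1.85 ± 0.22 higher on the log2 scale (SE, adjusted p = 0.0711 from edgeR). Slc4a1, Epb42, and Fech also passed, with log2 fold changes of 1.57, 1.67, and 1.30. The lowest, Slc25a38, a mitochondrial carrier needed for heme synthesis, was at 0.64 ± 0.23 (SE, adjusted p = 0.779). Summed over 39 counted genes, the list held 21117 and 29551 CPM in WT and 50792 and 57782 CPM in KO, with Hbb-bs the most abundant and Icam4 at 0 in every spleen library. Without WT replicate 2, 25 of the 38 were called, without WT replicate 1 it was 16, without KO replicate 1 it was 6, and without KO replicate 2 it was 0. All 38 had a log2 fold change above 0 in each of these fits.

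Markers of dividing cells were counted beside them. All 12 proliferation markers were above 0, against 51.3% of all genes tested, with a median log2 fold change of 1.05. Of these, edgeR called 1 upregulated, against 0.218% of all genes, and DESeq2 called 6, against 0.67% of its 29979 genes. Mki67 rose from 454 and 554 CPM in WT to 1322 and 1337 CPM in KO, 1.40 ± 0.17 higher on the log2 scale (SE, adjusted p = 0.0711 from edgeR). The lowest was Plk1 at 0.62 ± 0.29 (SE). The list summed to 987 and 1398 CPM in WT and 2786 and 2722 CPM in KO, and its part in the results was not tested. Without WT replicate 2, 9 of the 12 were called, without WT replicate 1 it was 1, and without either KO library it was 0, with all 12 above 0 each time.

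Markers of 2 other lineages that use these factors were also counted. GATA1, TAL1, NFE2, GFI1B, and FOG1 also act in megakaryocytes, and of 13 tested megakaryocyte markers 12 were below 0 with a median log2 fold change of −0.47. Of all 18834 genes tested, 9178 were below 0. No megakaryocyte marker was called by edgeR or DESeq2, and 5 had an unadjusted p under 0.05, all lower, against 0.828% of all genes. Both KO libraries were below both WT libraries for 8 of 13, against 14.4% of all genes. The number with an unadjusted p under 0.05 was 0 without WT replicate 2, where the median was −0.27, and 0 without KO replicate 2. They summed to 543 and 801 CPM in WT and 433 and 563 CPM in KO, with Ppbp the most abundant and Gp1bb at 0 in every spleen library. Gp5 was the lowest at −0.98 ± 0.36 (SE) and Selp the highest at 0.50 ± 0.55 (SE). Of 10 tested mast cell, basophil, and eosinophil markers none was called by either tool. At an unadjusted p under 0.05, 1 of them was higher, against 4.32% of all genes. They had 7 of 10 log2 fold changes above 0, and 4 genes did not overlap between genotypes, all higher in KO, against 17% of all genes. Their median was 0.34, which turned to −0.13 without KO replicate 2. Single genes ran from Mcpt8 at −0.86 ± 0.81 to Tpsb2 at 1.47 ± 0.56 (SE), and they summed to 85.2 and 102 CPM in WT and 123 and 123 CPM in KO, with Ccr3 the most abundant.

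Markers of the other spleen cells were counted in the same fit, and none of them was called by edgeR or DESeq2. The 12 neutrophil markers were all below 0 with a median of −0.65, from Mpo at −1.13 ± 0.44 to S100a8 at −0.43 ± 0.73 (SE). Of them 2 had an unadjusted p under 0.05 from edgeR, and 7 with the replicate block, all lower. Of all genes, 0.828% and 0.621% were lower at this p without and with the block. They summed to 490 and 1056 CPM in WT and 322 and 715 CPM in KO, with S100a9 the most abundant. Their median was −1.16 without WT replicate 1 and turned to 0.075 without WT replicate 2. The 9 B cell markers had a median of −0.16, from Pax5 at −0.49 ± 0.20 to Cr2 at 0.057 ± 0.25 (SE), and summed to 5633 and 4817 CPM in WT and 4740 and 4255 CPM in KO, with Cd79b the most abundant. Of the B cell markers 1, Pax5, was lower at an unadjusted p under 0.05, against 0.828% of all genes. None of the T cell, red pulp macrophage, or hepatocyte markers had such a p. The 10 T cell markers had a median of 0.11, from Cd3e at −0.18 ± 0.24 to Cd4 at 0.23 ± 0.28 (SE), and summed to 1309 and 816 CPM in WT and 1037 and 1265 CPM in KO, with Lck the most abundant. The T cell median turned to −0.175 without WT replicate 2, with 10 of 10 below 0, and to −0.028 without KO replicate 2, and was 0.58 without WT replicate 1, with 10 of 10 above 0. The 10 red pulp macrophage markers had a median of 0.063, from Hmox1 at −0.27 ± 0.48 to C1qb at 0.28 ± 0.18 (SE), and summed to 1980 and 2655 CPM in WT and 2622 and 2094 CPM in KO, with Vcam1 the most abundant. The macrophage median was 0.24 without WT replicate 2, and turned to −0.14 and −0.11 without WT replicate 1 and KO replicate 1. The B cell median stayed below 0 in each of these fits. The hepatocyte markers had a median of −3.53, which turned to 3.64 without WT replicate 2. Pancreatic acinar markers summed to 18.6 and 40.3 CPM in WT and 34.3 and 25.2 CPM in KO, heart muscle markers to between 19.9 and 34.6 CPM, and intestinal epithelium markers to between 27.3 and 41.0 CPM. How far any of these lists shaped the values of the 10 genes was not tested.

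**Figure D3:**
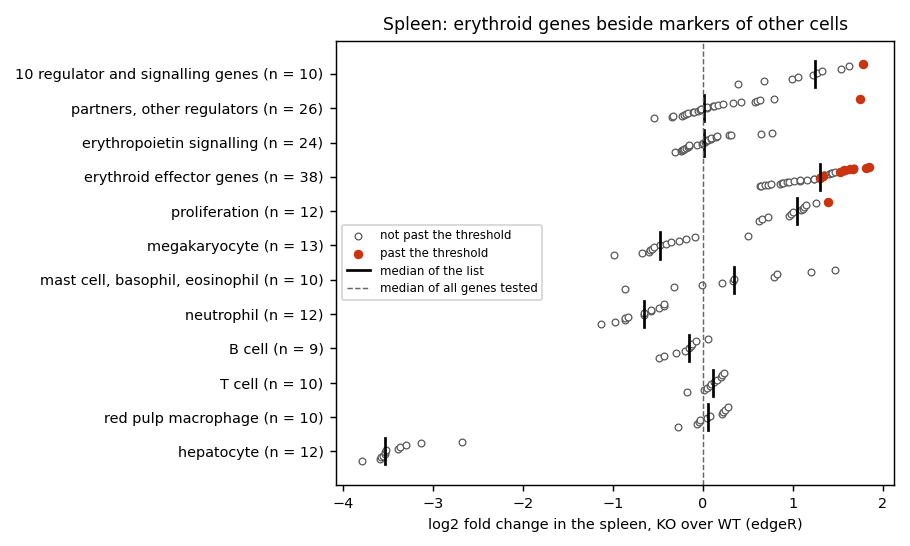
Log2 fold change of KO over WT in the spleen for each tested gene of the 10 genes and of 11 lists, with filled points past edgeR's threshold, a black bar at the median of each list, and a dashed line at the median of all genes tested. The 10 genes, the effector genes, and the proliferation markers have medians of 1.25, 1.31, and 1.05, and the medians of the other regulators and of the erythropoietin signalling genes lie near 0, with single regulators from −0.54 to 1.75.

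The WT spleen had the highest mean level of the 5 organs, in TPM, for 9 of the 10 genes, all except Erfe, which was higher in the small intestine. Compared with the mean of the other WT organs, 9 of 10 genes were called higher in the WT spleen by edgeR in a fit of all 20 libraries, against 22.5% of 23159 genes tested, and Zfpm1 was the exception (log2 difference 1.01 ± 1.04, SE, adjusted p = 0.501). The calls of Gata1, Gfi1b, and Erfe rest on organs at 0, and that of Erfe stands beside the higher level in the small intestine. Gata1 had 0 counts in 12 of 16 libraries of other organs and at most 8 counts in any of them. Against a floor of 3 counts per library, Gata1 in the lower WT spleen library was at least 177-fold higher than in the small intestine, liver, and kidney, whose WT libraries were at 0. Gfi1b was at 0 in all liver, kidney, and heart libraries, and against the WT libraries of these organs the lower WT spleen library was at least 63.9-fold higher. Ermap was at 0.245 TPM or less in every library of other organs, against 53.8 TPM in the lower WT spleen library.

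**Figure D4:**
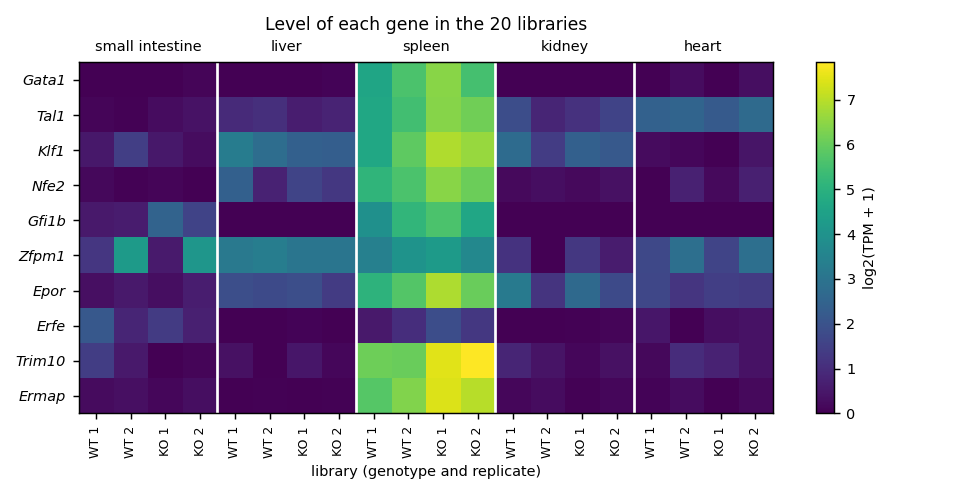
Level of the 10 genes in the 20 libraries as log2(TPM + 1), with 4 libraries for each organ in the order WT 1, WT 2, KO 1, KO 2. The spleen columns are brightest for every gene except Zfpm1 and Erfe, Klf1 and Zfpm1 are visible in the liver, and Zfpm1 in the small intestine is bright in both replicate 2 libraries only.

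Several of the genes were also measured in other organs. Klf1 was at 8.89 and 5.94 TPM in WT liver and 4.33 and 4.07 TPM in KO liver, and at 5.71 and 1.61 TPM in WT kidney and 4.25 and 3.6 TPM in KO kidney. Tal1, which is also made in blood vessels, was at 4.43 and 4.70 TPM in WT heart and 3.65 and 5.57 TPM in KO heart, and at 2.64 TPM or less in the kidney. Epor was at 8.27 and 1.24 TPM in WT kidney and 5.38 and 2.42 TPM in KO kidney, at 1.55 to 2.72 TPM in the liver, and at 1.32 to 2.14 TPM in the heart. The genotypes overlapped in the heart and the kidney. Nfe2 was at 4.27 and 0.696 TPM in WT liver and 2.05 and 1.42 TPM in KO liver, and was at 0.648 TPM or less in the libraries of the other organs outside the spleen.

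Zfpm1 followed the replicate number in the small intestine. WT libraries held 58 and 745 counts and KO libraries 16 and 600, so that replicate 2 was high in both genotypes. In the liver it was steady at 7.94 and 8.93 TPM in WT and 7.32 and 7.25 TPM in KO. Kidney libraries held 40 and 0 counts (WT) and 48 and 18 (KO), and heart libraries 57 and 283 (WT) and 47 and 308 (KO). In CPM the heart libraries were at 3.34 and 7.33 (WT) and 3.27 and 6.79 (KO), with replicate 2 again higher in both genotypes. Erfe was higher per length in the small intestine than in the spleen of WT mice, at 3.49 and 0.769 TPM against 0.434 and 1.02 TPM, and these ranges overlap. With Ilkap at 21.7 and 18.9 TPM in the WT small intestine, the shared bases of Erfe limit this value too.

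None of the genes was called between KO and WT in another organ, by edgeR or by DESeq2. The filter on low counts kept 4 of the 10 genes in the kidney and 5 each in the heart, liver, and small intestine, and a gene can pass it through 1 genotype. Of all genes, edgeR called 8 of 15729 upregulated (0.0509%) and 0 downregulated (0%) in the liver. It called 0% of 17680 genes in the small intestine, of 17550 in the kidney, and of 16632 in the heart. DESeq2 called 0.129% of all liver genes higher and 0.0781% lower, 0.126% and 0.0525% of small intestine genes, 0% and 0.0107% of heart genes, and 0% of kidney genes. At an unadjusted p under 0.05, Gfi1b was higher and Trim10 lower in the KO small intestine, against 1.77% and 0.617% of all genes, and no gene of the 10 reached this p in the liver, kidney, or heart. Of all genes there, 2.74% were higher and 1.96% lower at this p for the liver, 0.405% and 0.234% for the kidney, and 0.186% and 0.517% for the heart. Gfi1b counts were 10 and 11 in WT libraries against 80 and 38 in KO libraries, with a log2 fold change of 2.57 ± 0.71 (SE, adjusted p = 1 from edgeR). The WT counts of Gfi1b lie near the limit of the filter, which its KO libraries pass clearly, so nothing is read from its p. Trim10 counts were 46 and 12 in WT libraries against 0 and 2 in KO libraries, so that it passed the filter through WT alone with KO under the floor of 3 counts, and no fold is given and nothing is read from its p. The genotypes did not overlap for either gene, as for 13.6% of genes higher and 11.6% lower in that organ. Other transcripts also differed between these libraries. Heart muscle markers summed to 392 CPM in KO replicate 1, led by Myl2, and to 28.0 CPM or less in the other small intestine libraries, and T cell markers to 20.9 CPM there and to 161 CPM or more in the others. The mast cell, basophil, and eosinophil markers summed to 5.58 and 8.39 CPM in WT and 42.2 and 21.1 CPM in KO, led in all 4 libraries by Siglecf, at 3.55 and 5.78 CPM in WT and 40.7 and 17.4 CPM in KO. Their part in the values of Gfi1b and Trim10 was not tested. In the liver Klf1 was lower in both KO libraries, at −0.61 ± 0.31 (SE) on the log2 scale with an adjusted p of 1 from edgeR, as were 16.1% of all genes.

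Whether the change in the spleen differed from the mean change of the other 4 organs was tested as an interaction over all libraries. It passed for 0 of the 10 genes with edgeR (0 of 23159 genes, 0%), 0 with DESeq2 (0.00819% of all genes), and 0 with limma-voom with weights per tissue (0.00432% of all genes), an alternative chosen after seeing the data. Klf1 (log2 difference 1.94 ± 0.80, SE) and Trim10 (3.02 ± 0.97, SE) had an unadjusted p under 0.05 with edgeR, 2 of 10 against 1.85% of all genes. Both values exceed the change in the spleen and rest in part on organs near the floor, such as the KO small intestine for Trim10 at 0 and 2 counts, and the KO heart for Klf1 at 0 and 8 counts. Without a filter on low counts Trim10 passed, against 0.65% of all genes. The values of Gata1, Gfi1b, and Erfe in this fit rest on organs at 0 and are not given.

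Erythropoietin was looked at in the kidney and the hepcidin axis in the liver. Epo was too low to pass the filter in any organ. Its counts were 1 and 2 in WT kidney libraries and 2 and 4 in KO kidney libraries, and 0 counts in every library of the other 4 organs. In the liver, 0 of 13 hepcidin genes were called by edgeR or DESeq2, none had an unadjusted p under 0.05, and their median log2 fold change was 0.019. Hamp, which encodes hepcidin, was at 336 and 448 CPM in WT liver and 552 and 242 CPM in KO liver, with overlapping genotypes. Hamp2 was the lowest at −1.33 ± 0.73 (SE), and Tmprss6, a protease that restrains hepcidin, was the highest at 0.52 ± 0.26 (SE). In the spleen 0 of 12 tested genes of this list were called by either tool. At an unadjusted p under 0.05, 1 of the 12 was lower, against 0.828% of all genes. The list ran from Tmprss6 at −3.58 ± 2.36 (SE) to Tfr2 at 0.48 ± 0.82 (SE). Tmprss6 was at 8.13 CPM in spleen WT replicate 2, where liver transcripts were high, and at 0.51 CPM or less in the other spleen libraries.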

How the data were processed

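RNA from 5 tissues of WT and Nsun6-KO mice was measured in 20 libraries, with tissue, genotype, and replicate number taken from the labels. The authors trimmed reads with cutadapt, mapped them with HISAT2 2.1.0 to mm10, counted them with featureCounts 2.0.1 on exons, and deposited raw counts per gene together with the merged exon length of each gene in base pairs, which is not a measurement. In the methods they state reverse-stranded counting of proper pairs, and the command stored with the counts names neither. Between 54.9% and 59.8% of counts from 10 to 50 were even, so mates may have been counted apart, and counts are not independent molecules. The smallest library held 15897446 counts and the largest 44508197 (median 28513950), and the spread between replicates limits the precision.

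The members and lists were chosen with earlier results of these data known. KO and WT were compared within each organ from the counts with edgeR 4.0.16 (R 4.3.3, TMM, filterByExpr, robust quasi-likelihood test, Benjamini-Hochberg adjustment over all genes tested), and the interaction and the organ contrast came from a fit of all libraries. Standard errors were taken from the log2 fold change over the root of its F statistic. The paper names DESeq2, and DESeq2 1.42.0 was an alternative. TPM used the deposited lengths. The fits were tested on simulated data, and limma 3.58.1 voom with weights per tissue was added after seeing the data. Other alternatives were RLE size factors, no filter on low counts, a minimum of 10 counts throughout, no fold threshold, an adjusted p under 0.05, one fit of all libraries, a replicate block, and leaving out single libraries.

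The genes named are the 10 members and, from each list, called genes in the spleen (at most 5, by smallest p) and the genes with the highest and lowest log2 fold change, and the 10 genes most like the mean profile of the members. For pancreas, kidney, heart, and intestinal lists in the spleen only sums are given. Ilkap, Alb, Kap, Siglecf, Myl2, the most abundant gene of a list, genes at 0, and the regulators E2f2, Lmo2, Foxo3, E2f4, and Dnmt1 were named after seeing their values, outside this rule. Ahsp, 1 of 40 effector genes, was not analysed here. A called effector gene that the rule would name is not reported here. Promoters are from RefSeq. Figures were drawn with matplotlib 3.10.9.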

Additional observations from a re-analysis of the deposited data

How the results depend on the processing

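Every member kept a log2 fold change above 0 in the spleen under each alternative that refits the data, while 2 of the 12 alternatives change only the threshold. Of 120 outcomes of the test under these 12, 102 stayed on their side of the threshold, 15 gained a call, and 3 lost one. Of the 10 genes, edgeR called 1 upregulated (0.218% of all genes), and one fit of all 20 libraries called 0 (0% of 23159 genes). This count of upregulated members became 6 with DESeq2 (0.67% of all genes), 6 without a filter on low counts (0.867%), and 0 at an adjusted p under 0.05. With 1 spleen library left out it ranged from 0 (without KO replicate 2) to 6 (without WT replicate 2). The lone library of a genotype is then assumed to vary like the other group. No member was called downregulated under any of these. In the kidney no member was called, except Zfpm1 without WT replicate 1. The WT library left in that fit held 0 counts of Zfpm1, so nothing is read from this call. The count of called members was 0 under every alternative in the small intestine, liver, and heart. The interaction between spleen and other organs was called for 0 members, and for 1, Trim10, without a filter on low counts. The 9 members higher in the WT spleen than in other organs became 10 without a filter and 10 with limma-voom, and ranged from 8 to 9 with 1 spleen library left out. Over the 16 lists beside the members, 10 genes were called upregulated in the spleen, 34 with DESeq2, and from 0 (without KO replicate 2) to 45 (without WT replicate 2, of which 10 were hepatocyte markers) with 1 library left out. Without WT replicate 1, 12 hepatocyte markers, 3 neutrophil markers, and 2 genes of the hepcidin axis were called downregulated. The cause of these changes was not tested, except that the fit of all libraries takes its spread from all organs.

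The labels give the libraries of an organ a replicate number, and nothing states that it pairs animals. Deviations of same-numbered libraries from their group means correlated across genes by 0.00707 in the spleen, 0.0376 in the liver, 0.126 in the kidney, 0.365 in the heart, and 0.570 in the small intestine. With the replicate block 1 member was called in the spleen, Trim10 (log2 fold change 1.77, adjusted p = 0.0432 from edgeR). Of all spleen genes, 0.223% were called higher and 0.00531% lower with the block. In each other organ 0 members were called with the block, and 15 genes of the lists were called in the spleen against 10 without it. The spread between 2 libraries per group, not depth, limits most values, while Erfe with 16 to 90 counts in the spleen is also limited by counting.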

Other observations

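Outside the comparisons above, the mean profile of the 10 genes over the 20 libraries (log2 CPM, scaled per gene) was compared with that of 23149 other genes. The points share organs, libraries, and depth, so the correlations are a description. An r this high may come from presence in the spleen and absence elsewhere, which was not tested. The highest Pearson r was 0.982 for Redrum, a long noncoding RNA gene, at 3.43 and 8.29 CPM in WT spleen and 18.7 and 17.6 CPM in KO spleen (log2 fold change 1.64 ± 0.41, SE, adjusted p = 0.371 from edgeR). Trim58, the ubiquitin ligase gene of late red cell precursors, had an r of 0.972, with 4.62 and 4.58 CPM in WT and 11.8 and 16.2 CPM in KO. The gene 9830132P13Rik had an r of 0.971, with 1.19 and 1.22 CPM in WT and 3.86 and 6.59 CPM in KO. The other 7 of the 10 most alike genes (Cyp21a1, Tsga13, Crhr1, Gm34225, Ighv8-7, Asb17os, and AF067061) were at 6.97 CPM (AF067061) or less in every spleen library, with log2 fold changes from −0.091 to 0.83, and none was called. Of the members, Gata1 was closest to the mean profile (r = 0.976), and Zfpm1 (0.457) and Erfe (0.423) were least like it.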
